A study of Mus musculus with 9 samples.

Results

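Long intergenic noncoding RNAs (lincRNAs) were measured in mouse colon organoids through the lincRNA probes of an Agilent single-colour whole-genome array. The members were all non-control probes whose name starts with A_30_P, with those on chromosome X or Y left out. Of 16251 such probes, 577 lay on X and 0 on Y, which left 15674 members among the 55681 non-control probes. The array names 15617 members by a region of mouse build mm9 and, for all but 13 of them, by an orientation letter (F for 7890 probes, R for 7714), which the files do not define further. These regions number 3390, with a median length of 7451 bp, and overlapping regions merge into 2126 loci. The other 57 members carry 1 of 12 transcript names (BRN1-A, H19, HOTAIR, KCNQ1ot1, lincP21, NEAT1, NEAT2, NRON, PINC, TSIX, TUG1 and XIST). XIST and TSIX stayed in because their names give no chromosome. Probes of 1 region lie in the same stretch of the genome and may share a transcript, so they were not counted as replicates.

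LincRNAs are transcribed from stretches between protein-coding genes, and many are spliced and polyadenylated like messenger RNA but encode no known protein. As a class they are known to be less abundant and more restricted to particular tissues than messenger RNAs. Those with known roles act as scaffolds of nuclear bodies, as guides or decoys for proteins, or through the act of being transcribed, as at imprinted loci.

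The organoids, small epithelial cultures grown from colon, were profiled in 3 groups of 3 arrays: untreated at 0 weeks, and after 12 or 60 weeks with reagents that the labels call inflammatory without naming them. The labels give no strain, age, sex or reagent dose. No untreated culture was carried to 12 or 60 weeks, so the effects of treatment and of time cannot be told apart here. Nothing says whether the replicates came from separate animals or cultures, and p-values therefore measure the spread between these arrays, which may be technical.

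The probe sequences and the mm9 sequence were not used here. Of the 12 transcript names, 10 matched a RefSeq symbol or synonym (NEAT2 is a synonym of Malat1) and 6 had a promoter in the RefSeq table of build GRCm38.p6. The promoters of Malat1 and Kcnq1ot1 are shown because these were the 2 named lincRNAs with a probe that passed the test in a comparison against 0 weeks. Each line gives 250 bases before and 50 bases after the start, 5′ to 3′ on the minus strand, from chr19:5802623-5802922 for Malat1 and chr7:143296498-143296797 for Kcnq1ot1. Capitals mark motif matches, on either strand. The TATA box was searched as TATAAA. The CCAAT box was searched by its own letters. The AP-1 site was searched as TGANTCA, where N is any base.
Malat1: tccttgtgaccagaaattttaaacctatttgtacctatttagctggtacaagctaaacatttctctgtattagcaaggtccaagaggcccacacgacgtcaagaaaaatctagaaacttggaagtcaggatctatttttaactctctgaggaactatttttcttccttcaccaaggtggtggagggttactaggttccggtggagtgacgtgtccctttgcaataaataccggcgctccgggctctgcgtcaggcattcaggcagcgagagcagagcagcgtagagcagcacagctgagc
Kcnq1ot1: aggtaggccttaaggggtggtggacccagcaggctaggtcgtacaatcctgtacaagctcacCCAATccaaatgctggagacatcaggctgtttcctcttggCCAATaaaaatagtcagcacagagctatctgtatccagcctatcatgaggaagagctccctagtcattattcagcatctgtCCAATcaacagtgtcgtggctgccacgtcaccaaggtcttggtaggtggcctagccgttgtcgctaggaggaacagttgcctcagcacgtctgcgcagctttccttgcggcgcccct
The Kcnq1ot1 promoter held 3 matches to CCAAT and the Malat1 promoter none to any of the 3. No stretch was matched by more than 1 motif. Among the 32851 promoters of the table, 37.4% held CCAAT, 13.6% TATAAA and 7.81% TGANTCA. The Malat1 promoter held 10 CG pairs and that of Kcnq1ot1 held 9, against a median of 7. A match describes letters in this window and no more.

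Between 49.2% and 52.7% of all non-control probes were well above background on an array, by the scanner software's own call, and no spot was saturated. Levels are log2 intensities relative to each array's 75th percentile, and 0 is the level of that percentile. Across tested members, replicates correlated at 0.975 to 0.981 at 0 weeks and at 0.972 to 0.978 at 60 weeks. Of the 12 weeks arrays, the pair of replicates 1 and 3 gave 0.970, while replicate 2 gave 0.959 against replicate 1 and 0.939 against replicate 3. The typical (median) SD of a member among replicates was 0.20, 0.27 and 0.26 in the 3 groups, and 0.17 for 12 weeks when replicate 2 was set aside. Replicate 3 of 60 weeks was alone on a slide of its own, and the other 8 arrays shared another. Of 728 members that differed by at least 1 (log2) between 0 weeks and the mean of replicates 1 and 3 of 12 weeks, replicate 2 lay nearer to 0 weeks in 314. All 10 markers of colon epithelium were detected on all 9 arrays. Of 6 leukocyte markers 3 were detected on all 9 arrays, while Ptprc and Lyz2 were detected on none. Of 7 fibroblast and smooth muscle markers 1 was detected on all 9 arrays and Dcn, Pdgfra and Myh11 on none, and of 3 endothelial markers 2 were detected on all 9 and Cdh5 on none. The summed log2 level of the leukocyte list was 4.06 to 4.55 at 0 weeks, 4.60 to 5.58 at 12 weeks and 4.77 to 5.10 at 60 weeks. Both later groups thus lay above 0 weeks without overlap. That of the fibroblast and smooth muscle list was -1.77 to -1.31, -2.32 to -1.78 and -1.79 to -1.45, so that 12 weeks lay below 0 weeks without overlap, and that of the endothelial list 3.1 to 3.44, 2.77 to 3.15 and 3.02 to 3.5. The part of these lists in the results was not tested.

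Most lincRNA probes were not well above background, and the shares detected in the 3 groups overlapped. By the software's weaker call of positive and significant, 61.5%, 59.5% and 58.8% of them were detected at 0, 12 and 60 weeks, so that most then passed. Of the members, 3839 (24.5%) were well above background on all 9 arrays, 8388 (53.5%) on none and 3447 on 1 to 8. Among probes for RefSeq messenger RNAs (coding probes, with an NM_ accession), 59.4% were detected on all 9 arrays and 26.9% on none. Per array, 32.8%, 34.1% and 32.6% of members were detected at 0 weeks, 35.0%, 30.4% and 32.9% at 12 weeks and then 32.9%, 31.9% and 31.3% at 60 weeks. The groups overlapped, and replicate 2 of 12 weeks was the lowest array and replicate 1 of 12 weeks the highest. Means were 33.2% ± 0.84, 32.8% ± 2.31 and 32.1% ± 0.812 (SD, n = 3). The difference was -0.418 percentage points for 12 against 0 weeks, -1.11 for 60 against 0 weeks and -0.69 for 60 against 12 weeks. Exact permutation p-values, two-sided, were 1.0, 0.3 and 0.7 (0.9 to 1.0 adjusted over the 3 comparisons), where 3 arrays against 3 allow no p below 0.1. Coding probes were detected more often than lincRNA probes on every array, by 32.5 ± 0.983 percentage points (SD, n = 9; exact sign-flip permutation over arrays, two-sided p = 0.00391, the smallest possible).

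**Figure D1:**
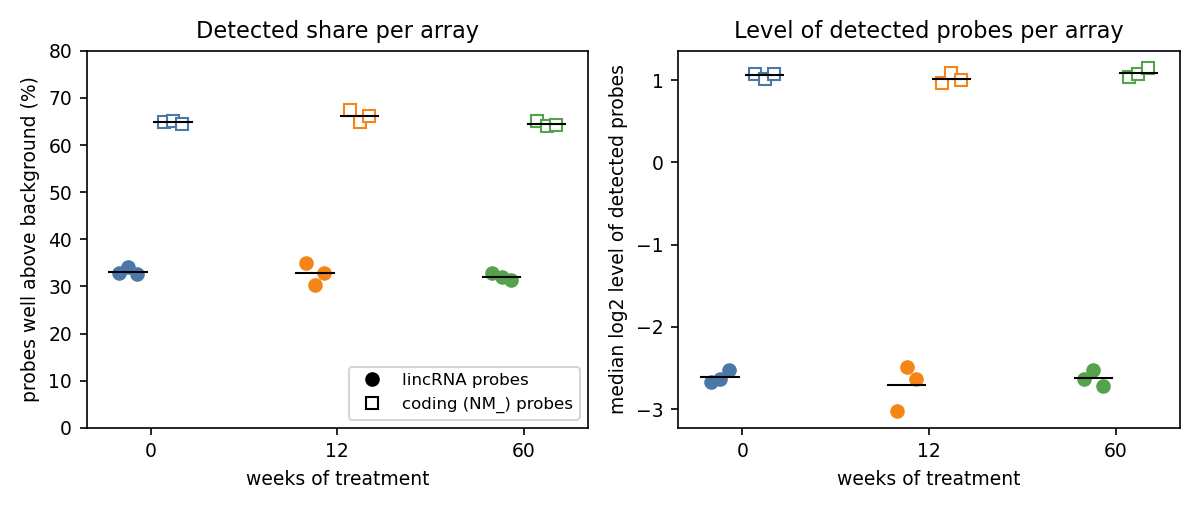
Left, share of probes well above background on each of the 9 arrays (percent), for lincRNA probes (filled circles) and coding probes (open squares), by weeks of treatment; right, median log2 level of the probes detected on each array. Bars are group means of 3 arrays. LincRNA shares lie between 30.4% and 35.0% in all groups, below every coding share, and detected lincRNA probes have median levels of -3.02 to -2.49, against 0.97 to 1.15 for coding probes.

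Detected lincRNA probes were also dimmer. Their median level was -2.61 ± 0.07 at 0 weeks, -2.71 ± 0.27 at 12 weeks and -2.62 ± 0.10 at 60 weeks (SD, n = 3), and it lay 3.71 ± 0.14 below that of detected coding probes (log2, n = 9 arrays; exact sign-flip permutation, two-sided p = 0.00391). Brightness also depends on a probe's own sequence, so this compares probe classes and not transcript numbers. By length of the region, 21.4% of probes in the lowest quartile (62 to 5226 bp) and 25.7% in the highest (30287 bp and over) were detected on all 9 arrays. At least 1 tested probe was found for 2226 of the 3390 regions (65.7%).

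A test across groups needed a probe well above background on at least 2 of 3 arrays of at least 1 group. This kept 5618 members (35.8%) of 29896 probes, against 18156 of 26536 coding probes (68.4%), and left 10056 members untested. The kept members include probes that passed only through the group in which they are bright. limma's moderated test was fitted on all 29896 probes, with p-values adjusted over all of them. Where a probe was below background on every array of 1 group, its change is a bound, "at least N-fold", taken against the lowest signal well above background on each array of that group or the probe's own signal if higher. A p-value printed beside such a bound tests the change in log2 level, with signals below background left in, and not the bound. In whole cultures, fewer cells of a type and less RNA per cell cannot be told apart.

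At 12 weeks more tested lincRNA probes had fallen than risen. Of 5618 members, 323 were higher at 12 than at 0 weeks (5.75%, against 13.4% of all tested probes) and 965 lower (17.2%, against 20.7%), or 1288 in all (22.9%, against 34.1%). At least 2-fold changes were called for 157 higher (2.79%, against 6.36%) and 266 lower members (4.73%, against 5.76%). The groups did not overlap for 2162 members (38.5%, against 50.3%). The median change was -0.23 over members, -0.13 over all tested probes and -0.05 over coding probes. Without 1 array the count of calls was 743 (0 weeks replicate 2), 796 (0 weeks replicate 3) or 815 (12 weeks replicate 1), and it stayed within 1.5 times of 1288 without any other. The count of lower members, 965, was 642 without 12 weeks replicate 3.

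The probe with the largest measured rise at 12 weeks (A_30_P01024647) targets chr4:135896689-135918414 in R orientation. Its log2 levels were -0.94, -1.52 and -2.18 at 0 weeks, 3.02, 2.70 and 2.87 at 12 weeks and then 2.74, 2.70 and 2.60 at 60 weeks. All 6 arrays of treated cultures lay above the 3 untreated ones, by 4.41 ± 0.27 (SE) at 12 weeks (limma's adjusted p = 1.72e-05) and 4.23 ± 0.27 at 60 weeks (adjusted p = 2.51e-05). It was the only tested probe of the 10 for that region and orientation. A probe in chr17:46058814-46059304 F (A_30_P01029840) rose likewise, from -3.07, -3.37 and -3.64 to 0.74, 0.54 and 0.66, and stood at 0.42, 0.59 and 0.16 at 60 weeks. Its change at 12 weeks was 4.0 ± 0.17 (limma's adjusted p = 3.08e-06), while the other tested probe of that region did not pass the test (-0.53). In chr1:74084292-74138492 F, A_30_P01024664 went from -1.72, -1.85 and -2.34 to 2.08, 1.80 and 1.86, a rise of 3.88 ± 0.19, and the second tested probe again did not pass (0.45).

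In 2 further regions with a large rise a single probe was called: chr12:116850878-116855932 R (3.31 ± 0.20, 1 of 3 tested probes called) and chr5:107504871-107507830 F (3.23 ± 0.24, the 1 tested probe). In chr19:53517903-53540753 R the probes moved together: 6 of 8 tested probes were higher at 12 weeks and 8 of 8 at 60 weeks. Its brightest probe (A_30_P01029324) stood at -2.75, -2.92 and -3.40 at 0 weeks, 0.35, -1.15 and -0.15 at 12 weeks and then 0.04, -0.55 and -0.91 at 60 weeks, with the treated arrays all above the untreated ones.

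Other lincRNA probes were on at 12 weeks alone. All 3 probes of chr1:183832694-183834125 R were below background on the 6 arrays of 0 and 60 weeks. The brightest of them (A_30_P01017515) stood at -6.70, -6.70 and -6.66 at 0 weeks, -2.19, -1.48 and -2.27 at 12 weeks and then -6.52, -5.92 and -6.83 at 60 weeks. It was at least 6.77-fold higher at 12 than at 0 weeks (limma's adjusted p = 1.17e-05) and at least 6.92-fold lower at 60 than at 12 weeks (adjusted p = 2.37e-05). This probe passed the filter only through 12 weeks, and its p-values are for the change in log2 level and not for the bounds. In chr15:100909469-100910253 F, A_30_P01027884 behaved likewise, with -1.32, -1.83 and -1.60 at 12 weeks and no detection on the other 6 arrays, and was at least 8.63-fold higher than at 0 weeks. A region that was dim but in part detected at 0 weeks, chr10:83181374-83249774 F, had 4 of 4 tested probes higher at 12 weeks and the same 4 lower again at 60 weeks. Its brightest probe (A_30_P01030126) was detected at 0 weeks (-4.40, -4.22 and -4.26), read -2.35, -0.09 and -2.73 at 12 weeks, where replicate 2 was the highest, and was below background at 60 weeks.

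Among the large falls at 12 weeks was that of probe A_30_P01030653 in chr2:143988645-143993945 R, from 1.65, 1.71 and 2.0 to -2.72, -1.68 and -2.30. The arrays did not overlap, and the change was -4.02 ± 0.24 (limma's adjusted p = 1.51e-05). At 60 weeks it stood at -0.66, -0.71 and -0.85, between the other groups. Of the 3 tested probes of that region and orientation only 1 was called lower at 12 weeks, and their changes ran from -4.02 to 0.09. In chr17:13008796-13023201 F all 3 probes fell at 12 weeks and were higher again at 60 weeks: A_30_P01023109 read 1.23, 1.24 and 1.16 at 0 weeks, -3.36, -1.41 and -3.53 at 12 weeks and then 0.40, 0.66 and 0.12 at 60 weeks. Its fall was -3.98 ± 0.49 (limma's adjusted p = 0.000688), with replicate 2 of 12 weeks nearest to the untreated arrays.

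A fall at 12 weeks that was no longer called at 60 weeks was also seen in overlapping R regions of chromosome 8. In chr8:94841965-94881130, A_30_P01032788 read -0.23, 0.00 and 0.03 at 0 weeks, -3.45, -2.76 and -3.41 at 12 weeks and then -0.38, -0.45 and -0.38 at 60 weeks. Its change was -3.14 ± 0.19 at 12 weeks and -0.33 ± 0.19 at 60 against 0 weeks (limma's adjusted p = 0.231). Of the 3 tested probes of that region and orientation, 2 were called lower at 12 weeks. The probe of chr8:94849929-94870274 (A_30_P01027299) fell by 3.34 ± 0.29 and stood -0.19 ± 0.29 from the untreated level at 60 weeks. By contrast, chr5:73771801-73772662 F stayed low: A_30_P01018547 read -0.86, -1.04 and -0.81 at 0 weeks, -4.56, -4.56 and -4.26 at 12 weeks and then -6.67, -4.95 and -4.61 at 60 weeks. It was detected on only 1 array at 60 weeks.

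At 60 weeks the lincRNA calls against 0 weeks again leaned towards lower levels, and the largest change of any member was a rise on chromosome 13. Of 5618 members, 348 were higher (6.19%, against 11.9% of all tested probes) and 604 lower (10.8%, against 12.6%), or 952 in all (16.9%, against 24.5%). At least 2-fold calls were 161 higher (2.87%, against 5.46%) and 180 lower (3.2%, against 4.19%), and the groups did not overlap for 2137 members (38.0%, against 49.6%). The median change was -0.18 over members and -0.08 over all tested probes. With another background correction (normexp) the calls split into 300 higher and 342 lower (46.7% higher), nearer to even than the 348 and 604 above. Without 1 array the count was 611, 543 or 542 (0 weeks replicate 1, 2 or 3) and within 1.5 times of 952 without any other. The 604 lower members became 398 without 60 weeks replicate 1 and 396 without 60 weeks replicate 3. The arrays of 0 and 60 weeks share no row of the slide: with the row as a block, 165 members (2.94%) and 5.14% of all tested probes were called.

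All 3 probes of chr13:98267049-98267604 F rose stepwise. A_30_P01017940 read -3.29, -2.89 and -3.67 at 0 weeks, -1.17, -0.02 and -0.67 at 12 weeks and then 3.27, 2.94 and 3.74 at 60 weeks. No 2 groups overlapped, and the change was 2.67 ± 0.33 at 12 weeks (limma's adjusted p = 0.000723), 6.60 ± 0.33 at 60 against 0 weeks (adjusted p = 8.22e-06) and 3.93 ± 0.33 at 60 against 12 weeks (adjusted p = 0.000143). A second probe of the region changed by 6.61 ± 0.26 at 60 against 0 weeks (A_30_P01028300). The last (A_30_P01023433) was below background at 0 weeks, where its change has only a bound, and read 2.73, 2.39 and 3.26 at 60 weeks. A nearby region of the same orientation, chr13:98270713-98272269 F, rose too: A_30_P01018811 was below background at 0 weeks (-6.72, -6.64 and -6.63), read -3.58, -3.75 and -4.27 at 12 weeks and then -1.42, -1.31 and -1.05 at 60 weeks, at least 11.2-fold higher (limma's adjusted p = 1.05e-06). Of its other probes, A_30_P01024434 was higher at 60 weeks (adjusted p = 0.00677) and A_30_P01032869 did not pass (adjusted p = 0.0784).

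**Figure D2:**
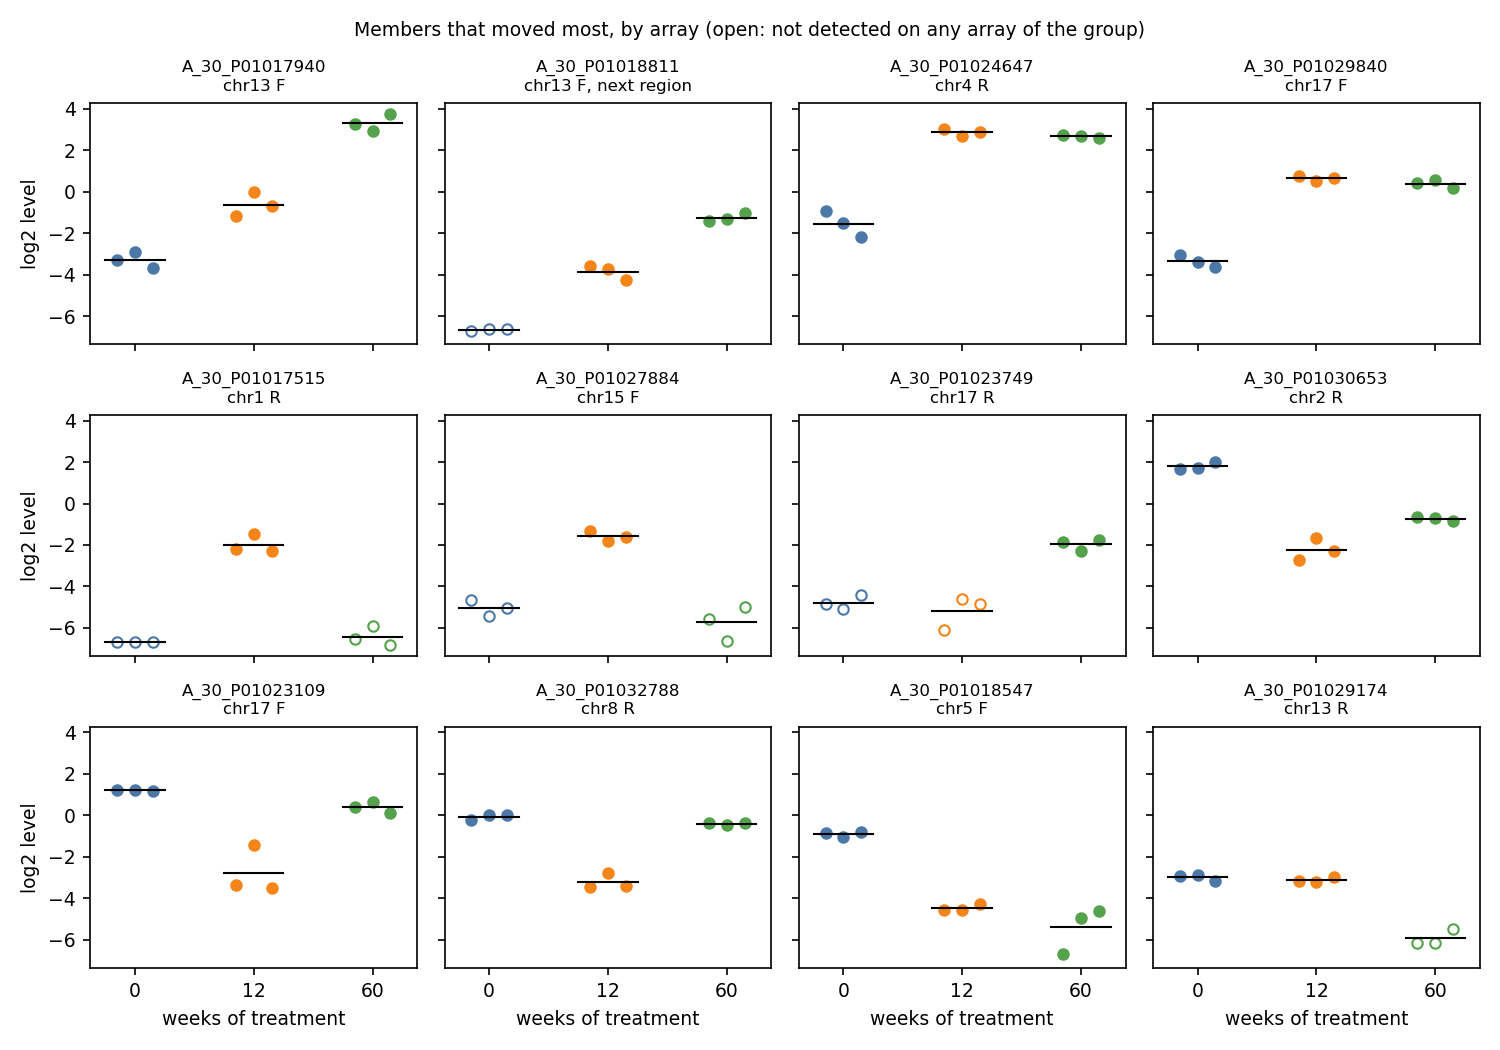
Log2 level relative to the array's 75th percentile (y axis) by weeks of treatment (x axis) for 12 of the members that changed most, 1 point per array and a bar for the mean of 3 arrays; open points mark a group in which the probe was detected on no array. A_30_P01017940 climbs from a mean of -3.29 to 3.32 over the 3 groups, A_30_P01024647 and A_30_P01029840 reach their height by 12 weeks, A_30_P01017515 and A_30_P01027884 are on at 12 weeks alone, and A_30_P01032788 is low at 12 weeks alone.

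Members on at 60 weeks alone included those of 2 overlapping R regions of chromosome 17. In chr17:32044823-32045974, A_30_P01023749 read -4.85, -5.07 and -4.41 at 0 weeks, -6.09, -4.61 and -4.83 at 12 weeks and then -1.84, -2.30 and -1.76 at 60 weeks. It was below background on the first 6 arrays and at least 6.46-fold higher at 60 than at 0 weeks (limma's adjusted p = 0.00132), with 3 of 3 probes called; with the row block the adjusted p was 0.121. The probe of chr17:32035750-32056000 (A_30_P01019807) was at least 4.8-fold higher (adjusted p = 0.126 with the row block). Both probes passed the filter only through 60 weeks, and their p-values are for the change in log2 level and not for the bounds. On chromosome 4, A_30_P01022112 (chr4:145000941-145148666 R) and A_30_P01021886 (chr4:145450600-145461600 R) rose over both intervals and were at least 4.59-fold and 6.73-fold higher at 60 than at 0 weeks.

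Among falls at 60 weeks, chr13:28700385-28760363 R was lost after 12 weeks: A_30_P01029174 read -2.92, -2.87 and -3.15 at 0 weeks, -3.15, -3.24 and -2.96 at 12 weeks and then -6.15, -6.17 and -5.49 at 60 weeks. The first 2 groups overlapped and the third lay below background, at least 3.46-fold lower than at 0 weeks (limma's adjusted p = 2.77e-05). In chr5:125713450-125735500 R, A_30_P01025060 fell over both intervals, from -2.41, -2.75 and -2.07 to -4.67, -3.30 and -4.68 and then to below background, at least 5.13-fold below 0 weeks. In chr2:156654934-156665632 R, A_30_P01026673 was as low at 60 weeks (-1.15, -1.06 and -0.58) as at 12 weeks (-1.33, -0.52 and -1.26), against 0.96, 1.07 and 1.12 at 0 weeks.

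Between 12 and 60 weeks the calls leaned the other way. Of 5618 members, 626 were higher at 60 weeks (11.1%, against 17.2% of all tested probes) and 318 lower (5.66%, against 12.7%), or 944 in all (16.8%, against 29.9%). At least 2-fold calls were 267 higher (4.75%, against 5.52%) and 144 lower (2.56%, against 5.39%), and 1510 members did not overlap (26.9%, against 42.4%). The median change was 0.06, against 0.05 over all tested probes. This comparison shares its 12 weeks arrays with the comparison of 12 against 0 weeks, so the leanings are not independent. Without 12 weeks replicate 3 the count was 596, without 60 weeks replicate 1 it was 625, and it was within 1.5 times of 944 without any other array. The 626 higher members became 412 without 12 weeks replicate 1. With the row block it was 517, and with a fit to these 2 groups alone 581.

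In chr2:128249388-128250301 F all 3 probes were higher at 60 weeks than in both other groups. A_30_P01028201 read -2.05, -2.28 and -2.05 at 0 weeks, -2.82, -2.41 and -3.27 at 12 weeks and then -0.17, -0.36 and -0.42 at 60 weeks, a rise of 2.52 ± 0.21 over 12 weeks (limma's adjusted p = 0.000117). The 60 weeks arrays lay above the other 6. In chr7:91558475-91733625 F all 5 tested probes were lower at 60 than at 12 weeks; A_30_P01024322 read -0.89, -2.67 and -1.07 at 12 weeks and -4.50, -6.00 and -4.75 at 60 weeks, and replicate 2 of 12 weeks lay nearest to the -3.06, -3.06 and -3.74 of 0 weeks.

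Calls of single probes were mostly not shared by every probe of a region. Of 768 pairs of region and orientation with at least 3 tested probes, 23 had all of them higher and 46 all lower at 12 against 0 weeks, 297 had some called in 1 direction, 389 none, and 13 had calls in both directions. At 60 against 0 weeks 25 had all higher and 17 all lower, and at 60 against 12 weeks 50 and 17. Within such a set the median SD of the change among probes was 0.23 to 0.24 (log2). Merged by position, 772 loci had at least 3 tested probes, and 6 had all of them higher and 16 all lower at 12 weeks. The locus with the most probes among those was chr3:137734560-137752677, where all 7 tested probes of 3 regions were lower, by -2.19 to -1.86. In chr14:55433382-55452757 and chr5:96591892-96606467 all 6 tested probes of each were lower at 12 weeks and higher again at 60 weeks. In chr6:40693617-40720167 all 8 tested probes were lower at 60 than at 12 weeks, by -1.66 to -1.13, and in chr4:146507925-146532650 all 5 were higher than at 0 weeks at 12 (0.92 to 0.99) and at 60 weeks (0.89 to 0.99).

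Regions with both orientations tested were described by the calls of each orientation. Of 1042 regions with F and R probes, 547 had a tested probe in both. At 12 against 0 weeks the brightest probe of each orientation was lower in both for 24 regions, higher in both for 4, opposite for 6, called in 1 for 183 and in neither for 330. Of all tested members, 22.9% were called in that comparison. Whether calls in the 2 orientations went together more or less often than this share alone would give was not tested. Changes in the 2 orientations correlated at 0.11 to 0.14 across regions (Pearson r, 547 regions measured on the same 9 arrays, with no test). In chr5:35975265-35982561 both orientations were bright and moved apart in all their probes. A_30_P01024606 (F) went from 1.19, 1.77 and 1.79 to 0.54, 0.03 and 0.44 at 12 weeks and 0.37, 0.68 and 0.48 at 60 weeks, with 4 of 4 F probes lower in both comparisons. A_30_P01032382 (R) went from 3.83, 3.59 and 3.52 to 5.0, 4.69 and 4.54, with 4 of 4 R probes higher at 12 weeks and 2 of 4 at 60 weeks. The F change was -1.25 ± 0.20 (limma's adjusted p = 0.00266; 0.054 with the row block) and the R change 1.10 ± 0.14 (adjusted p = 0.000956). At 60 against 0 weeks the F change was -1.07 and the R change 0.74, and with the row block their adjusted p-values were 0.32 and 0.0529. In chr16:44717531-44724206, A_30_P01030226 (F) came up from below background, at least 3.99-fold, and was the only tested probe of 10 in that orientation. In R orientation, 4 of 6 probes fell at 12 weeks and were higher again at 60 weeks (A_30_P01022187, -1.44 ± 0.22 and then 1.23 ± 0.22). In chr6:4841700-4847400, A_30_P01032562 (F) rose by 2.21 ± 0.13 at 12 weeks and A_30_P01017482 (R) fell by 0.87 ± 0.15. The other tested F probe did not rise there (-0.40, not called), while 2 of 2 tested R probes were lower.

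Of the lincRNAs with a known name, NEAT2, NEAT1 and TUG1 were detected by all their probes on all 9 arrays, and NEAT2 and KCNQ1ot1 had probes that passed the test. NEAT2 is another name of Malat1, an abundant RNA of nuclear speckles. Its probe A_30_P01019221 read -0.03, 0.21 and -0.22 at 0 weeks, 0.63, 0.41 and 0.39 at 12 weeks and then 0.99, 1.64 and 0.91 at 60 weeks. No 2 groups overlapped, with 60 weeks replicate 2 the highest array, and the change at 60 against 0 weeks was 1.19 ± 0.21 (limma's adjusted p = 0.00457). It was 0.70 ± 0.21 at 60 against 12 weeks (adjusted p = 0.0356) and 0.49 ± 0.21 at 12 against 0 weeks (adjusted p = 0.102). The call at 60 against 12 weeks was lost in 10 of 19 alternatives, among them leaving out any array but 0 weeks replicates 2 and 3 and 60 weeks replicate 3 (adjusted p up to 0.103). The other NEAT2 probes rose by 0.85 ± 0.23 (A_30_P01031072, adjusted p = 0.028) and 0.84 ± 0.25 (A_30_P01020325, adjusted p = 0.0414) at 60 against 0 weeks. Each of these 2 calls was lost without 0 weeks replicate 1, 0 weeks replicate 3 or 60 weeks replicate 2 (adjusted p 0.053 to 0.131), and A_30_P01020325 lost it too without 12 weeks replicate 1, 12 weeks replicate 3 or 60 weeks replicate 1. With the row block the 3 probes had adjusted p-values of 0.076, 0.154 and 0.191. A probe for Malat1 outside the lincRNA set gave 1.08 ± 0.22 at 60 against 0 weeks (adjusted p = 0.0104). The region chr19:5801802-5802597 R of build mm9 has coordinates near the Malat1 promoter shown above (chr19:5802623-5802922 of build GRCm38.p6). The builds were not aligned, so whether this region belongs to Malat1 was not tested. Its 3 probes had no call. A_30_P01031754, 1 of the 10 brightest members, read 7.95, 8.47 and 7.93 at 0 weeks and 7.98, 8.54 and 7.89 at 60 weeks, a change of 0.02 ± 0.21.

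NEAT1, the scaffold RNA of paraspeckles, had 5 probes with changes of 0.29 to 0.43 at 60 against 0 weeks and no call. A_30_P01020135 read 2.73, 2.76 and 2.70 at 0 weeks, 3.47, 2.09 and 3.42 at 12 weeks and then 3.06, 3.56 and 2.81 at 60 weeks. All its 60 weeks arrays lay above the untreated ones, while at 12 weeks replicates 1 and 3 lay above and replicate 2 below. All 5 probes had that order at 12 weeks. The 60 weeks arrays of A_30_P01023251, A_30_P01025798 and A_30_P01029720 overlapped the untreated ones. Over all tested probes, the groups of 60 and 0 weeks did not overlap for 49.6%. Without 12 weeks replicate 2, A_30_P01020135 was called at 12 against 0 weeks (0.72, limma's adjusted p = 0.0252), as were A_30_P01029720 (0.75) and A_30_P01025798 (0.71). TUG1, a nuclear lincRNA needed for photoreceptor development, had 5 probes with changes of -0.29 to -0.20 at 12 weeks and no call; A_30_P01033104 read 1.79, 1.52 and 1.66, then 1.74, 1.08 and 1.41, then 1.4, 1.46 and 1.56, and the groups overlapped.

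KCNQ1ot1, the imprinted transcript antisense to Kcnq1, had 3 tested probes of 5. A_30_P01026203 read 0.85, 1.35 and 1.09 at 0 weeks, 0.32, 0.52 and 0.57 at 12 weeks and then 0.66, 0.99 and 1.02 at 60 weeks. The 12 weeks arrays lay below all others, at -0.63 ± 0.16 from 0 weeks (limma's adjusted p = 0.0188). The call was lost without 0 weeks replicate 2 (adjusted p = 0.0695), 0 weeks replicate 3 (0.0552) or 12 weeks replicate 1 (0.0646), and with the row block (0.057). The dimmer KCNQ1ot1 probes changed by -0.11 and -0.19 and were not called. HOTAIR, transcribed from the HoxC cluster, was detected by 1 probe of 5 (A_30_P01022414), at -1.93, -1.48 and -1.81, then -2.37, -1.97 and -2.37, then -2.20, -1.90 and -2.36, with no call. Its 12 weeks arrays lay below the untreated ones, and without 12 weeks replicate 2 the fall was called (-0.63, limma's adjusted p = 0.0258). H19, an imprinted fetal transcript, was detected on all arrays by 1 probe of 5 and changed by 0.15 ± 0.23 at 60 against 0 weeks. NRON had 2 tested probes and BRN1-A had 1, with no call, and PINC, lincP21, XIST and TSIX had none tested. Among members with a region but no orientation letter, all 5 probes of chr17:12941161-12944859 were detected on all arrays and were 0.62 to 0.79 higher at 60 than at 12 weeks. The test called 2 of them (A_30_P01027065, adjusted p = 0.0195, and A_30_P01018135, adjusted p = 0.0437), and both calls were lost without 12 weeks replicate 3 (0.0551 and 0.133) or 60 weeks replicate 2 (0.0652 and 0.127). That of A_30_P01018135 was also lost without any 1 of 5 other arrays (0 weeks replicates 1 and 2, 12 weeks replicates 1 and 2, and 60 weeks replicate 3), and both were lost with the row block.

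**Figure D3:**
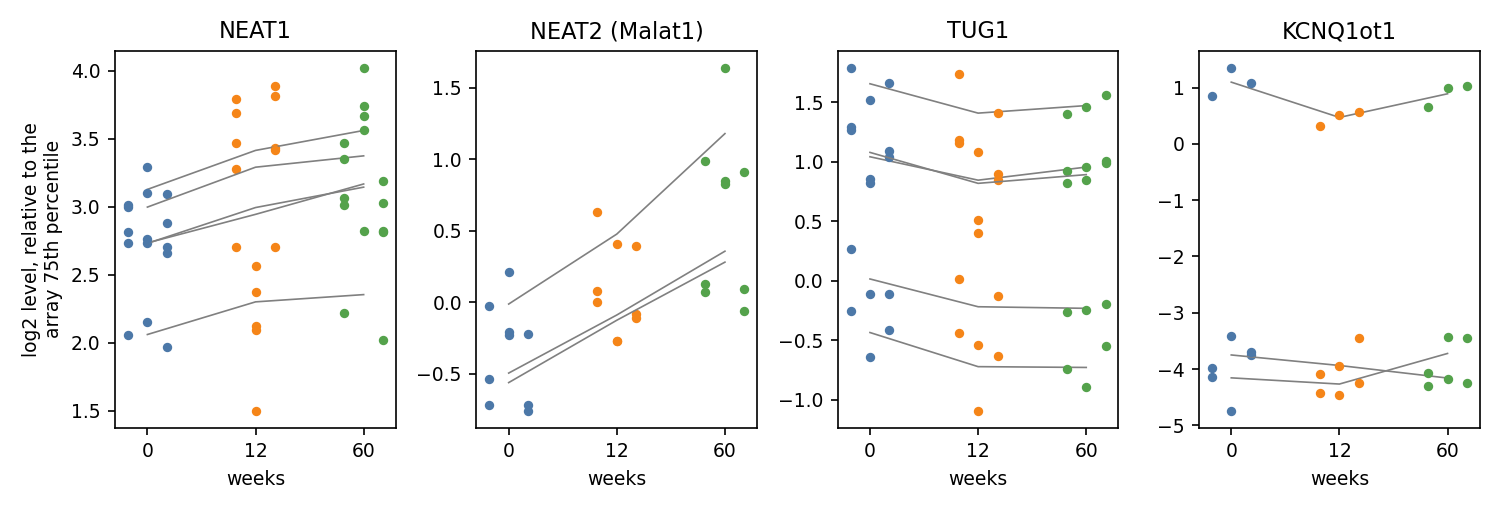
Log2 level relative to the array's 75th percentile (y axis, a scale per panel) on each array by weeks of treatment for the tested probes of NEAT1, NEAT2, TUG1 and KCNQ1ot1; grey lines join a probe's group means of 3 arrays. The 3 NEAT2 probes have their highest means at 60 weeks, NEAT1 has 1 low array at 12 weeks and then the brightest KCNQ1ot1 probe is lowest at 12 weeks.

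Known long noncoding RNAs are also measured by probes outside the lincRNA set. Of 56 on a list of them, 28 had such a probe and 21 were tested, Malat1, Neat1 and Tug1 among them, which the lincRNA probes measure too. At 12 against 0 weeks 0 of the 21 were higher and 3 lower, at 60 against 0 weeks 4 were higher and 2 lower, and at 60 against 12 weeks 6 were higher and 0 lower. Over all tested probes the shares higher and lower were 13.4% and 20.7%, 11.9% and 12.6%, and 17.2% and 12.7%. The list's medians were -0.06, 0.26 and 0.18, against -0.13, -0.08 and 0.05 over all tested probes. Mir22hg, host of a microRNA, was at 0.94 ± 0.14 at 0 weeks, 0.00 ± 0.09 at 12 weeks and 0.43 ± 0.19 at 60 weeks (SD, n = 3; -0.94 ± 0.13 at 12 weeks, limma's adjusted p = 0.00128). Snhg6, a host of small nucleolar RNAs, rose by 0.67 ± 0.16 and Pvt1, a neighbour of Myc, by 0.36 ± 0.09 at 60 against 0 weeks. Airn, the imprinted transcript antisense to Igf2r, rose by 0.81 ± 0.18 (adjusted p = 0.0146). Snhg1 was at 2.46 ± 0.18, 1.80 ± 0.43 and 2.96 ± 0.30, and was higher at 60 than at 12 weeks (1.16 ± 0.24, adjusted p = 0.00896), as was Snhg5 (0.70 ± 0.20, adjusted p = 0.0292). Snhg7 was lower at 12 than at 0 weeks (-0.63 ± 0.18, adjusted p = 0.0297). Peg13, an imprinted transcript, was lower at 12 weeks (-0.49 ± 0.14, adjusted p = 0.0313) and at 60 weeks (-0.52 ± 0.14, adjusted p = 0.0333) than at 0 weeks.

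The share of members called was lower at the lowest levels than at the highest. At 12 against 0 weeks, 17.1% of members with a mean level under -4 were called and 38.8% of coding probes at that level. The shares were 19.3% and 35.2% at -4 to -2, 28.7% and 40.0% at -2 to 0, and 33.8% and 38.4% at 0 to 2. Above 2 they were 37.7% of 358 members and 36.9% of 6670 coding probes. Among these bright members 30 were higher and 105 lower, and among coding probes 933 and 1529. At 60 against 0 weeks, 26.8% of the bright members and 25.9% of the bright coding probes were called, and at 60 against 12 weeks 25.4% and 32.9%. At levels of 0 to 2, members and coding probes were called in 21.9% and 30.3% at 60 against 0 weeks. At 60 against 12 weeks these shares were 18.8% and 37.4%. The brightest member, A_30_P01026458 in chr11:22681800-22707775 R, read 8.97, 9.20 and 9.17 at 0 weeks, 8.49, 8.91 and 8.70 at 12 weeks and then 9.01, 9.14 and 9.02 at 60 weeks, lower at 12 weeks by -0.42 ± 0.13 (limma's adjusted p = 0.0404). A_30_P01027122 in chr1:193875525-193978800 R was at 7.75, 7.83 and 7.96, then 7.41, 7.92 and 7.44, then 8.28, 8.42 and 8.47, with all 60 weeks arrays the highest (0.80 ± 0.15 over 12 weeks, adjusted p = 0.00696). At 60 against 0 weeks it was called higher (0.54), while the other tested probe of that region and orientation was called lower (-0.45). The probe of chr9:88610323-88614622 R (A_30_P01029533) was among the steadiest members, between 1.54 and 1.72 on all 9 arrays.

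**Figure D4:**
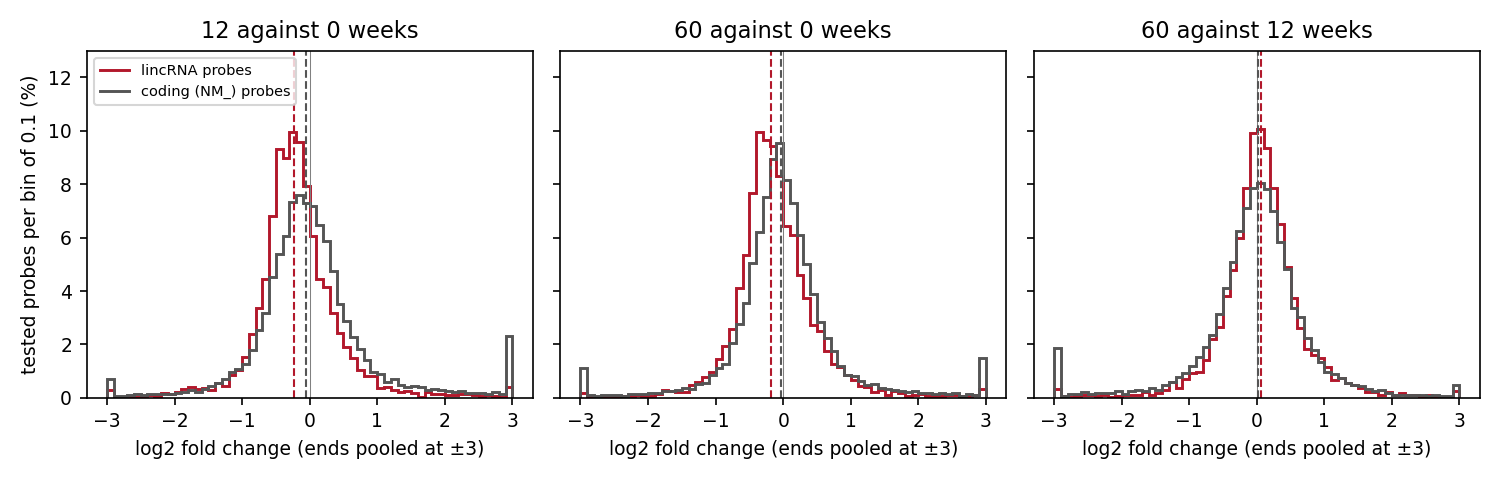
Share of tested probes (percent, y axis) per bin of 0.1 of the log2 fold change (x axis) for 5618 lincRNA probes and 18156 coding probes in each comparison; dashed lines are medians, and changes beyond 3 either way are pooled in the end bins. The lincRNA medians lie at -0.23, -0.18 and 0.06, and the coding medians at -0.05, -0.04 and 0.02.

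The 5 regions with the most tested probes had 15 or 16 each. In chr11:95627874-95640824, 9 of 16 tested probes were lower at 12 weeks (all changes from -0.67 to -0.21) and 0 at 60 weeks. In chr8:72663625-72673010, 6 of 16 were lower at 12 weeks and 10 at 60 weeks. In chr14:65431652-65437902, 7 of 15 were higher at 12 weeks and then 5 were higher and 1 lower at 60 weeks. In chr17:26911397-26917047, 0 of 16 were called at 12 weeks and 2 were lower at 60 weeks. The other is on chromosome 18, where 3 of 15 were lower at 12 weeks and 0 were called at 60 weeks.

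LincRNA probes were also compared by chromosome, since coding probes differed between chromosomes. At 12 against 0 weeks the median change of coding probes was 0.27 on chromosome 4, 0.16 on 5, 0.24 on 12 and 0.19 on 14, and -0.20 to -0.02 on the other autosomes. LincRNA medians on these 4 chromosomes were -0.14, -0.17, -0.17 and -0.20, and on the other autosomes -0.36 to -0.19. At 60 against 0 weeks coding medians were also 0.29 on chromosome 10 and 0.37 on 19, where lincRNA medians were -0.13 and 0.02. Over all tested members, the chromosome 19 lincRNA median was the only one above 0 in that comparison, and chromosomes 4 and 12 followed with -0.08 each. On chromosome 4, 43 of 384 tested members were higher at 60 than at 0 weeks and 16 lower; on chromosome 12, 29 of 257 were higher and 18 lower; on chromosome 19, 20 of 149 were higher and 9 lower. On the other autosomes but 3, which had 24 each way, and 17, with 38 higher and 35 lower, more members were lower. At 60 against 12 weeks 32 chromosome 19 members were higher and 2 lower, from 12 and 2 of its 40 loci. Chromosome 10, where the coding median was 0.36 in that comparison, had a lincRNA median of 0.03, with 28 members higher and 20 lower. A locus can hold several regions and both orientations. Its members may or may not share a transcript and were not counted as replicates. No test was made between chromosomes.

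Brighter members, with a mean level over -2, were taken apart after the values were seen. At 60 against 0 weeks their median was 0.09 on chromosome 19 and 0.07 on chromosome 4, where that of all members was -0.08, so the sign on chromosome 4 turned with the level. For chromosome 19 (54 members) the median departure from the 0 weeks mean was -0.38, -0.16 and -0.23 on the arrays of 12 weeks and 0.08, 0.21 and 0.01 on those of 60 weeks. For chromosome 4 (121 members) it was -0.18, 0.02 and -0.10 at 12 weeks and 0.08, 0.12 and -0.02 at 60 weeks. For chromosome 7 (91 members) it was -0.65, -0.30 and -0.46 at 12 weeks and -0.31, -0.23 and -0.39 at 60 weeks, the lowest median of any autosome at both times. On chromosome 7, 0 of these 91 members were higher and 48 lower at 12 weeks, against 147 higher and 459 lower of the 1919 such members on all autosomes. The arrays of 12 and 60 weeks did not overlap on chromosome 19 and did on chromosomes 4 and 7. Chromosome 19 was not alone in this. On chromosome 1 the values were -0.52, -0.26 and -0.43 at 12 weeks and -0.23, -0.14 and -0.23 at 60 weeks. On chromosome 17 they were -0.23, -0.15 and -0.26, and then -0.06, 0.09 and -0.11. The part of replicate 2 of 12 weeks, which lay nearest to 0 weeks on chromosomes 4, 7 and 19, was not tested.

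**Figure D5:**
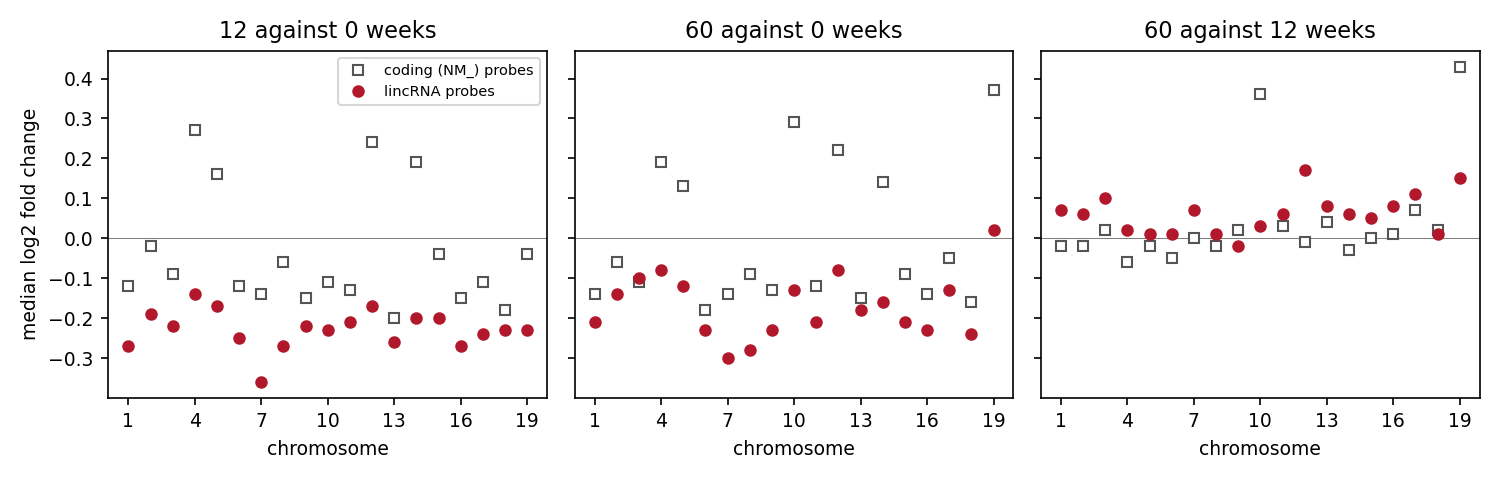
Median log2 fold change (y axis) of tested lincRNA probes (filled circles) and coding probes (open squares) on each autosome (x axis) in the 3 comparisons. Coding medians stand above 0 on chromosomes 4, 5, 12 and 14 in both comparisons with 0 weeks and on 10 and 19 at 60 against 0 weeks, while lincRNA medians there lie between -0.20 and 0.02.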

How the data were processed

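RNA of 9 organoid samples was labelled with Cy3 and hybridised to Agilent arrays. Per the file headers, the authors quantified the scans with Agilent Feature Extraction 10.7.3.1, protocol GE1_107_Sep09, and the regions are named on build mm9. The deposited scanner files give an intensity per spot that is background-subtracted, with no scaling across arrays. In the deposited value table there is a signal for 11802 members: the same intensity divided by 1 constant per array (0.993 to 0.999 of its 75th percentile). All columns were matched to samples, with 0 left over.

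Outlier-flagged spots (117 to 163 of 59305 per array) were set to missing. Intensities were scaled to the 75th percentile of the array (non-control probes) and taken to log2. Group means over all 9 arrays were fitted with limma 3.58.1 (lmFit, eBayes) in R 4.3.3, 3 comparisons and an F test, two-sided, with Benjamini-Hochberg adjustment and a threshold of 0.05. In simulated data for 12 against 0 weeks on 29896 probes, 1.49%, 25.4% and 57.6% of changes of 0.5, 1 and 2 (log2) were recovered, and 1 unchanged probe was called. The simulation changed 67, 67 and 66 lincRNA probes by these amounts and left all other probes unchanged. In the data 34.1% of tested probes were called, so the adjustment was less strict there. These shares therefore do not measure recovery in the data. The number of arrays limits the precision. The files hold no mean signal, so normexp (offset 50) used the median signals.

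The members and lists were chosen with earlier results of these data known. Named probes were, per region and orientation, the brightest of: the 6 largest measured and the 6 largest bounded changes each way per comparison, the 10 brightest, the 5 regions with most tested probes, up to 6 regions with opposite orientations and the 6 steadiest; a change counted only where the arrays of the 2 groups did not overlap. All named lincRNAs and up to 10 called members of the list of known long noncoding RNAs were described too. Further probes and loci in the text were chosen after their values were seen. Alternatives are given at the end. One marker of the leukocyte list is not reported here by name.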

Additional observations from a re-analysis of the deposited data

How the results depend on the processing

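Over all results and alternatives that concern counts of calls or detection, 195 values stayed on their side of the stated limits, 49 counts fell below them and 6 shares moved. Of the named probes' values, 3421 kept their side of the threshold, 120 lost the call, 30 gained one, and 0 turned sign while called on either side; some that were never called did turn sign. Without 1 array, calls ranged from 743 to 1759 at 12 against 0 weeks (225 to 431 higher, 518 to 1328 lower), from 542 to 1265 at 60 against 0 weeks (227 to 457 higher, 293 to 808 lower), from 596 to 1311 at 60 against 12 weeks (399 to 878 higher, 197 to 433 lower), and from 1125 to 2153 in the F test (1698 with all arrays). The highest counts were those without 12 weeks replicate 2. With normexp, 342 members were lower at 60 against 0 weeks and 209 at 60 against 12 weeks. With no filter on dim probes, which tests more probes, 620 were lower at 12 against 0 weeks and 378 at 60 against 0 weeks. With only the 2 groups compared, 581 were called at 60 against 12 weeks (383 higher, 198 lower). With 1 value per region and orientation (2781 tested, by construction fewer), calls were 624 (136 and 488), 487 (149 and 338) and 434 (279 and 155) in the 3 comparisons and 815 in the F test. With the slide as a block, 396 were lower at 60 against 0 weeks. Blocking on slide row, 208 were higher at 12 against 0 weeks, 165 were called at 60 against 0 weeks (58 higher, the rest lower) and 517 at 60 against 12 weeks (325 and 192), and 1108 in the F test. Except where the construction shows it, the cause was not tested. With the software's weaker call of positive and significant in place of well above background, 61.5%, 59.5% and 58.8% of probes were detected at 0, 12 and 60 weeks, and counted by region with any detected probe 63.3%, 62.6% and 61.3%. With the replicate block, 314 members were higher and 980 lower at 12 against 0 weeks, 346 and 562 at 60 against 0 weeks, and 944 were called at 60 against 12 weeks. Deviations of same-numbered arrays correlated at -0.07 to 0.29 (9 pairs, 2 over 0.1), and 4 of 9 arrays correlated best with an array of their own number, so the labels' numbers are not shown to pair arrays.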
